A study of Homo sapiens with 14 samples.

Results

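Clones of the human melanoma line A375 that carried 1 truncated copy of ZC3H18 (Z18) beside an intact copy were compared with wild-type clones by RNA sequencing. The 3 clones labelled heterozygous for a truncating Z18 mutation (trunc/+) and the 2 wild-type (WT) clones were chosen by their genotype label alone, and make up 5 of the 14 libraries of the series. Per the methods, all clones were grown from single cells after transient transfection with Cas9, and those that became trunc/+ also received a guide to the coding sequence of Z18 with a single-stranded DNA donor. One trunc/+ clone took up the designed change by homology-directed repair and the others carry different truncating mutations, while the WT clones received the Cas9 vector with no guide, so the groups differ in the guide and the donor as well as in the genotype. A further 3 clones with heterozygous loss of Z18 (-/+) share the estimate of the spread and serve as the most similar group. The 6 bulk libraries share no library with the clones. Of these, 3 were labelled Z18 knockout by bulk CRISPR, made per the study to assess loss of function, and 3 had empty vector.

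Z18 is a nuclear zinc-finger protein that joins the cap-binding complex and its partner ARS2 on new transcripts to the NEXT and PAXT adaptors, which hand RNA to the nuclear exosome for degradation. Transposable elements (TEs) are interspersed repeats, and the LTR class among them holds the endogenous retroviruses (ERVs), whose long terminal repeats can start transcription. Short-lived transcripts from introns, promoters and repeats are typical substrates of nuclear RNA surveillance. In bulk RNA, fewer cells that make a transcript and less of it per cell cannot be told apart.

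Each clone is 1 library, so p-values measure only the spread between clones. Aligned fragments ranged from 27705683 to 33018360 over the 5 libraries, and TE copies took 6.92% to 8.06% of them. Over all tested genes the 2 WT clones correlated at r = 0.951, pairs of trunc/+ clones at 0.925 to 0.950, and a WT with a trunc/+ clone at 0.931 to 0.972, so clones of 1 genotype were no more alike than clones of different genotypes. The first principal component held 40.8% of the variance and placed the WT clones at -26.4 and 17.1 and the trunc/+ clones at 6.03, 39.6 and -33.0. The second, with 17.0%, held all trunc/+ clones at 9.89 to 34.6 and the WT clones at -28.7 and -7.42. The lineage factor SOX10 was at 180 and 115 FPKM in WT and at 199, 73.4 and 205 in trunc/+, but 14 of 30 melanocyte differentiation genes stayed under 1 FPKM in all 5 clones, the defining pigment genes MLANA and TYR being listed at 0. Of markers of other cell types, 9 of 14 epithelial, 7 of 10 fibroblast, 8 of 11 haematopoietic and 6 of 7 endothelial genes stayed under 1 FPKM in all 5 clones, with CDH1, THY1 and CLDN5 listed at 0. The exceptions were high in both genotypes for KRT18 (up to 496 FPKM in WT and 343 in trunc/+), KRT8 (59.4 and 11.2), CD68 (24.5 and 70.3) and CD74 (1131 and 1184), and the part of these genes in the results was not tested.

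**Figure D1:**
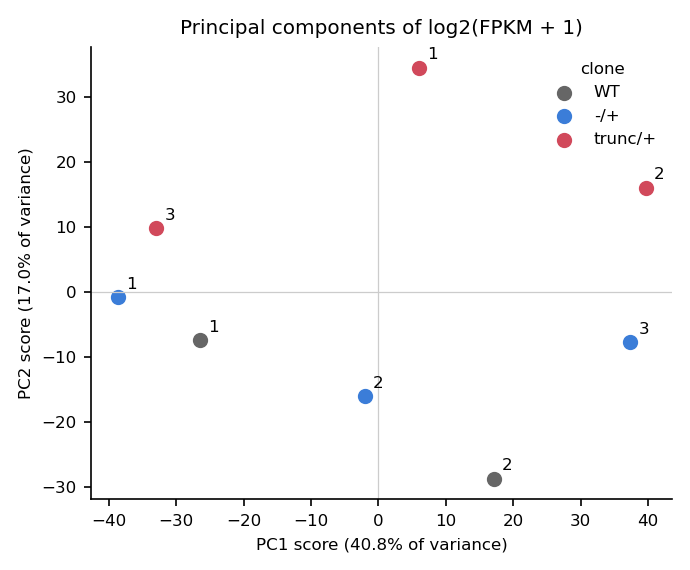
Principal components of log2(FPKM + 1) over the tested genes in the 8 clones; each point is a clone, coloured by genotype and numbered by replicate, with the percent of variance on each axis. The first component (40.8%) spreads the clones of every genotype, and on the second (17.0%) the 3 trunc/+ clones lie above all other clones.

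Z18 mRNA (chr16:88570403-88631964, plus strand) was lower in every trunc/+ clone than in either WT clone. It was at 23.5 and 22.0 FPKM (fragments scaled to transcript length and library size) in the WT clones and at 14.3, 13.98 and 8.70 in the trunc/+ clones, 0.542 of the WT mean. The -/+ clones lay between, at 16.2, 17.1 and 16.1 FPKM. The log2 difference between trunc/+ and WT, taken here and below on log2(FPKM + 1), was -0.86 (SE 0.21), with an adjusted p of 0.536 (limma with Benjamini-Hochberg adjustment over all genes). FPKM per gene does not tell the truncated transcript from the intact one.

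Across 12904 tested genes, 1 passed the adjusted threshold of 0.05 (0.00775%), and at an unadjusted p under 0.05 trunc/+ was higher for 424 genes (3.29%) and lower for 555 (4.3%). Values of trunc/+ and WT did not overlap and were higher in trunc/+ for 1364 genes (10.6%) and lower in trunc/+ for 1985 (15.4%). The median log2 difference of all tested genes was -0.02. These counts rested partly on single clones: without the second WT clone 206 genes were higher and 246 lower at unadjusted p under 0.05, and without the third trunc/+ clone 649 were higher. Below, a gene is called higher or lower at this unadjusted threshold, against the shares just given, and the adjusted p of the genes named was over 0.05 for all but GAGE2C. The leading genes of smallest p in each direction were taken only from genes that did not overlap. Their separation from WT is therefore a condition of the choice and not a result.

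**Figure D2:**
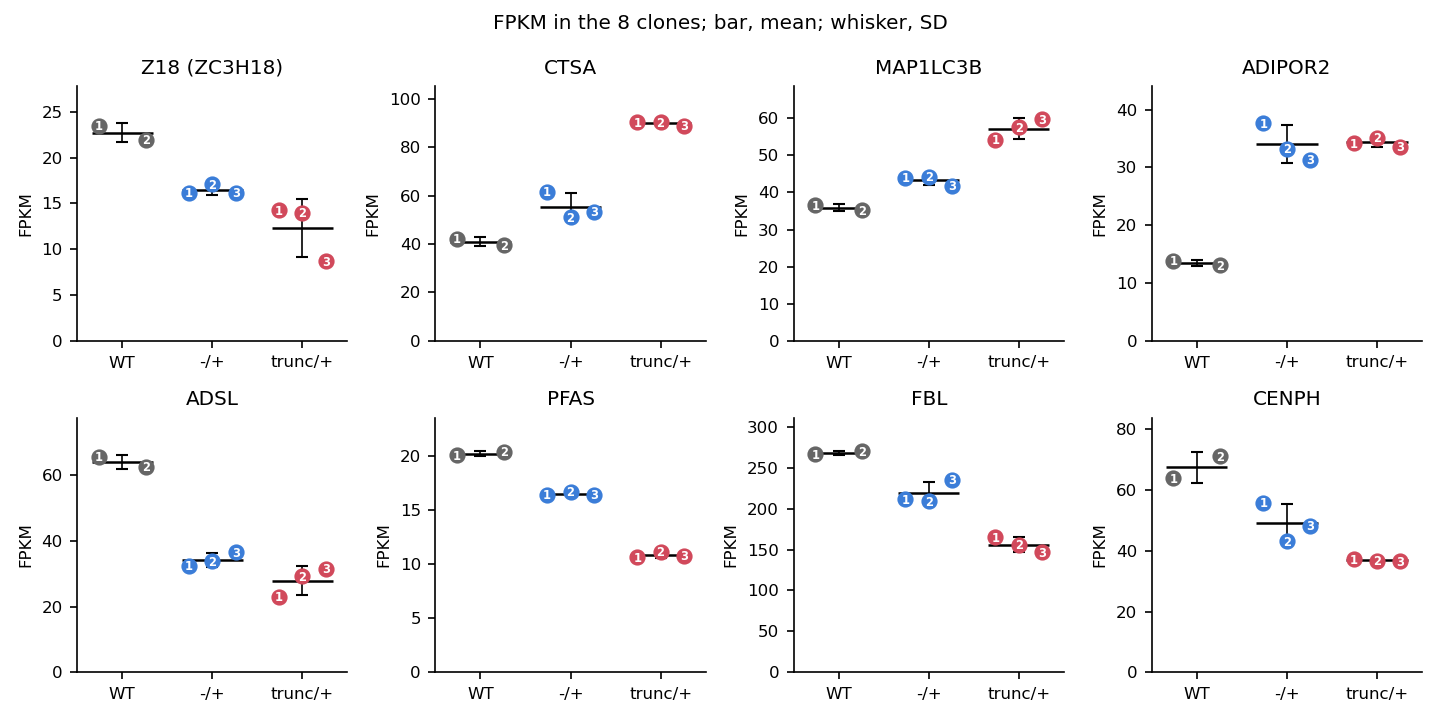
FPKM of 8 genes in the 8 clones by genotype; each numbered point is a clone, the bar is the mean and the whisker the SD, and every axis starts at 0. CTSA and MAP1LC3B stand highest in trunc/+, while ADSL, PFAS, FBL and CENPH stand lowest there, and ADIPOR2 is at one level in trunc/+ and -/+.

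Genes of the lysosome, the acidic compartment in which proteins, lipids and sugars are broken down, were higher in trunc/+. Of 83 members tested, 25 were higher and 0 lower, and 75 had a positive difference. Their median was 0.44 beside -0.02 for all genes, and 0.46, 0.38 and 0.40 in the single trunc/+ clones, so no single clone carried it. The list was assembled after gene values had been seen and is a description. Summed FPKM over the members was 2971 and 2501 in WT and 4054, 3828 and 3956 in trunc/+, with no overlap. All groups within the list shared the direction: acid hydrolases had 12 of 46 members higher (median 0.49), membrane proteins 6 of 19 (0.42) and the proton pump that acidifies the lumen 7 of 18 (0.35), with all 18 pump genes positive. Without the second WT clone 10 of the 83 were higher (4 hydrolases, 2 membrane proteins and 4 pump genes).

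CTSA, the protective protein that stabilises lysosomal sialidase and galactosidase, was the lysosomal gene with the smallest p. It was at 42.3 and 39.5 FPKM in WT and at 90.2, 90.2 and 88.9 in trunc/+. The trunc/+ clones were nearly level and above every other clone, the -/+ clones being at 61.7, 51.1 and 53.2. The log2 difference was 1.12 (SE 0.12), with an adjusted p of 0.0995 (limma) that ranged from 0.0601 to 0.783 over 11 other settings. GLMP, a partner of the lysosomal transporter MFSD1, was at 29.4 and 28.1 FPKM in WT and at 45.4, 44.3 and 45.1 in trunc/+ (0.63, SE 0.11). TCIRG1, a membrane subunit of the proton pump, was at 9.27 and 9.35 in WT and at 16.05, 15.6 and 17.1 in trunc/+ (0.74, SE 0.14). CTSA, GLMP and TCIRG1 were all picked from genes whose groups did not overlap, so that separation was fixed by the choice.

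Other lysosomal members, named after their values were seen, included the pump subunit ATP6V0E1 (39.5 and 33.0 against 81.9, 73.5 and 50.5 FPKM) and the tetraspanin CD63 (436 and 310 against 632, 720 and 642). The calcium channel MCOLN1 was at 8.20 and 8.48 FPKM in WT and at 12.6, 11.99 and 12.1 in trunc/+. In CTSD, an aspartic protease, the WT clones themselves differed, at 69.2 and 42.4 FPKM, while trunc/+ was at 90.5, 89.2 and 107. NPC2, which carries cholesterol out of the lysosome, was at 118 and 67.3 FPKM in WT and at 235, 185 and 145 in trunc/+. In all of these genes every trunc/+ clone was above both WT clones.

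Autophagy genes, whose products bring cargo to the lysosome, differed in 2 of 37 members, both higher, with a median of 0.11, and 4 without the third trunc/+ clone or 1 without the second WT, first trunc/+ or second trunc/+ clone. MAP1LC3B, the LC3 protein of the autophagosome membrane, was at 36.6 and 35.2 FPKM in WT and at 54.2, 57.5 and 59.7 in trunc/+ (0.65, SE 0.11). The cargo receptor SQSTM1 was at 153 in both WT clones and at 433, 790 and 216 in trunc/+ (1.45, SE 0.52). MAP1LC3B was even between clones, whereas SQSTM1 varied more than 3-fold among the trunc/+ clones.

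Promoters of the lysosomal list held the E-box CACGTG, the core of the element bound by MiT/TFE factors and also by MYC, at a higher share than all promoters. In the RefSeq windows (GRCh38.p14, 250 bases before to 50 after the start), searched on both strands, which read alike for this palindrome, it stood in 19 of 59 matched lysosomal genes (32.2%), in 5 of 18 of those higher at unadjusted p under 0.05 (27.8%), in 12.7% of all 9920 matched tested genes and in 8.77% of all 27305 genes. Among all 319 matched higher genes the share was 15.99%, and among 424 lower genes 13.9%. The 2 lysosomal promoters below are shown because each holds 2 matches (capitals) near the start of a gene described above, CTSA at chr20:45891085-45891384 and MCOLN1 at chr19:7522374-7522673, both on the plus strand.
CTSA: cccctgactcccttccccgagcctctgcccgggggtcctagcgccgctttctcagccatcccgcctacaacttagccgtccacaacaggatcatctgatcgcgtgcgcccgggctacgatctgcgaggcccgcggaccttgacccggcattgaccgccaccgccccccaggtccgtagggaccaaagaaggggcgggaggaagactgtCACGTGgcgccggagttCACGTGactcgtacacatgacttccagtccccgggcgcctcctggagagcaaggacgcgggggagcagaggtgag
MCOLN1: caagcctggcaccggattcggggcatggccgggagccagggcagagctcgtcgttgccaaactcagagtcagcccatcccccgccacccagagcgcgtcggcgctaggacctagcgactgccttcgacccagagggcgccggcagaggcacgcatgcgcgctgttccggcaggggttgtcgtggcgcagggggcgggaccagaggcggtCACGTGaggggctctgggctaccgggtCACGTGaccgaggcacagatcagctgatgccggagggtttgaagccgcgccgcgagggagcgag
A match is a run of letters and does not show binding.

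Genes of de novo purine synthesis, the route from ribose phosphate to IMP and on to AMP and GMP, were lower in trunc/+. Of 13 members 9 were lower and 0 higher, with a median of -0.47. This list too was assembled after values had been seen. The medians were -0.69, -0.35 and -0.35 in the single trunc/+ clones, and 5 members were lower without the second WT or without the first trunc/+ clone.

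In pathway order, the phosphoribosyl donors PRPS1 and PRPS2 had log2 differences of -0.48 and -0.53, and the committing amidotransferase PPAT overlapped between genotypes (-0.32). The trifunctional GART was at 80.6 and 91.9 FPKM in WT and at 48.3, 59.9 and 56.0 in trunc/+ (-0.65, SE 0.14). PFAS, which makes the next intermediate, was at 20.1 and 20.4 in WT and at 10.6, 11.1 and 10.8 in trunc/+ (-0.84, SE 0.12), with an adjusted p of 0.269 (limma). The groups were separate for GART, and for PFAS that was a condition of its choice. The PFAS values of trunc/+ spanned less than 1 FPKM. PAICS was at 160 and 182 FPKM in WT and at 101, 121 and 125 in trunc/+ (-0.57, SE 0.14). ADSL, adenylosuccinate lyase, which acts at a pair of steps, was at 65.6 and 62.7 in WT and at 23.0, 29.3 and 31.5 in trunc/+ (-1.18, SE 0.16), with an adjusted p of 0.253 (limma). No other member was as far below WT. ATIC, the last enzyme before IMP, was at 101 and 112 FPKM in WT and at 77.3, 92.4 and 70.9 in trunc/+. On the GMP branch IMPDH2 and GMPS were lower (-0.47 and -0.31) and IMPDH1 was not (-0.05), and on the AMP branch neither ADSS1 (0.47) nor ADSS2 (-0.01) was called. For ADSS1, the only member with a positive difference, every trunc/+ clone was above both WT clones.

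Ribosome biogenesis genes were lower as well, in 14 of 96 members with 0 higher, at a median of -0.26. Only 4 of the 96 had a positive difference, and for 48 the trunc/+ clones all lay below WT, beside 15.4% of all genes. The list was assembled after values had been seen, and its count was 5 without the first WT or the first trunc/+ clone and 6 without the second WT clone. FBL, fibrillarin, the methyltransferase of box C/D ribonucleoproteins, was at 267 and 270 FPKM in WT and at 165, 156 and 147 in trunc/+ (-0.78, SE 0.12), with an adjusted p of 0.396 (limma). POLR1H, a subunit of RNA polymerase I, was at 26.7 and 29.5 in WT and at 17.2, 19.7 and 15.4 in trunc/+ (-0.66, SE 0.14). The subunit POLR1E (-0.59) and the helicase DDX55 (-0.70) were lower too. Among abundant nucleolar proteins NPM1 was at 2265 and 2454 FPKM in WT and at 1464, 1802 and 1885 in trunc/+, and NCL at 304 and 325 against 236, 242 and 255. In each of these genes the groups were separate, which for FBL was a condition of its choice.

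Of matched ribosome biogenesis promoters, 32 of 79 (40.5%) held CACGTG, and 3 of the 13 (23.1%) with a member lower at unadjusted p under 0.05, beside the same 12.7% of tested genes. For purine synthesis it was 3 of 11 (27.3%). FBL (chr19:39846330-39846629, minus strand) and ATIC (chr2:215311809-215312108, plus strand) are shown as promoters of lower genes that hold the same letters as CTSA, whose mRNA was higher.
FBL: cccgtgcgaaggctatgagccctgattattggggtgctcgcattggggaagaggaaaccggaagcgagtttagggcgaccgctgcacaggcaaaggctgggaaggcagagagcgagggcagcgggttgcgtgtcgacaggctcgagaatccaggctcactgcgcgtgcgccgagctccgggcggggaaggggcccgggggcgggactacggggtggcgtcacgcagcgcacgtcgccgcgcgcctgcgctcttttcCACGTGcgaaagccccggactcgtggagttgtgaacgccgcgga
ATIC: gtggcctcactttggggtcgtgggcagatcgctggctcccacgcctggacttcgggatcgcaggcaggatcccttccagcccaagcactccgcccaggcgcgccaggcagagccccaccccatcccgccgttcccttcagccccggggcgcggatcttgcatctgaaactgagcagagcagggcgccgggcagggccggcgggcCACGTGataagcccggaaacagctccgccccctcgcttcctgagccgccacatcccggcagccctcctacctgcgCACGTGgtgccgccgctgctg
The letters stood in promoters of genes from both directions.

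**Figure D3:**
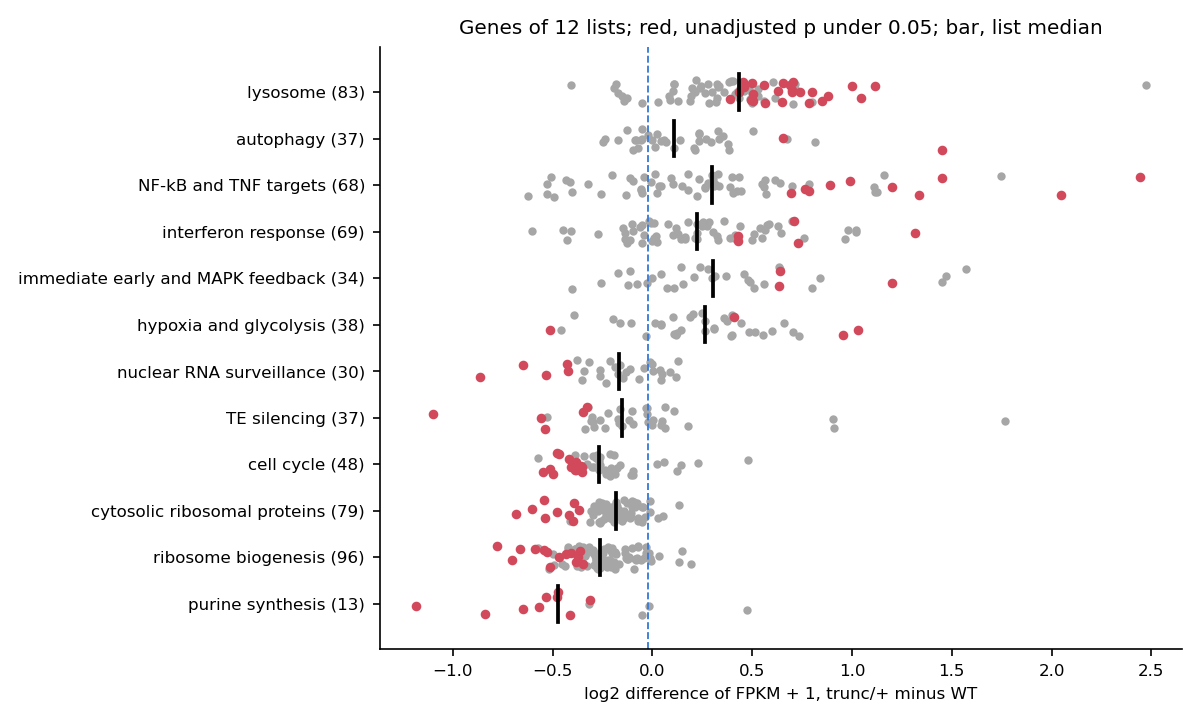
Log2 difference between trunc/+ and WT on the log2(FPKM + 1) scale for each tested member of 12 gene lists; a point is a gene, red where the unadjusted p was under 0.05, the black bar is the list median and the dashed line the median of all genes (-0.02). Lysosomal genes sit above the line (median 0.44) and purine synthesis (-0.47), ribosome biogenesis (-0.26) and cell cycle genes (-0.27) below it.

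Ribosomal protein genes of the cytosol were lower in 9 of 79 members and higher in 0, at a median of -0.18. The count depended on 1 clone: medians were -0.30 and -0.35 in the first and second trunc/+ clones and 0.07 in the third, and 40 members were lower without the third. It was 2 without the first WT clone, 5 without the second WT or the second trunc/+ clone, 3 with no filter on low FPKM and 5 after quantile scaling. RPL18 was at 1287 and 1184 FPKM in WT and at 952, 853 and 861 in trunc/+, and RPS19 at 466 and 430 against 319, 320 and 250. Both were below WT in every trunc/+ clone, the third included. Host genes of small nucleolar RNAs, which guide rRNA modification, were lower in 4 of 24, at a median of -0.27. SNHG8 was at 231 and 230 FPKM in WT and at 140, 122 and 174 in trunc/+, and the others were SNHG16 (-0.35), SNHG30 (-1.03) and SNHG17 (-0.41). The third trunc/+ clone went the other way: list medians were -0.60, -0.36 and 0.15 in the single trunc/+ clones, and summed FPKM was 1822, 1739 and 3056 beside 2667 and 2684 in WT. The count was 12 without the third trunc/+ clone, 2 without the first or second, 1 without either WT clone, 7 with a replicate block and 2 with the 5 clones alone.

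Cell cycle genes were lower in 13 of 48 members and higher in 0, with a median of -0.27 and 6 positive differences. Those of G1/S and DNA replication gave 9 of 25, and those of G2 and mitosis 4 of 23, with 0 of the 23 positive. The G2 and mitosis count was 0 on TPM, without the second WT clone and without the third trunc/+ clone, 1 with a replicate block and 2 with the 5 clones alone. The G1/S count was 1 without the second WT clone, 2 without the third trunc/+ clone, and 5 without either other trunc/+ clone, with a replicate block or with the 5 clones alone. MCM6 and MCM7, subunits of the replicative helicase, were at 38.1 and 40.04 FPKM in WT against 26.8, 28.9 and 26.2, and at 172 and 200 against 135, 138 and 129. RRM1, a subunit of ribonucleotide reductase, was at 58.3 and 67.7 in WT and at 49.9, 51.0 and 46.4 in trunc/+. The mitotic spindle factor TPX2, named after its values were seen, was at 103 in both WT clones and at 80.5, 86.1 and 70.0 in trunc/+. All of these were separate between genotypes. The count was 1 without the second WT clone, 8 without the first trunc/+ clone and 2 without the third, where 2 members were higher, and it was 6 on TPM, 6 with a replicate block and 7 with the 5 clones alone.

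Several genes outside these lists with the smallest p act in the same processes. CENPH, a subunit of the inner kinetochore, was at 63.8 and 71.1 FPKM in WT and at 37.3, 36.7 and 36.5 in trunc/+ (-0.85, SE 0.14). RPA3, a subunit of the factor that binds single-stranded DNA, was at 43.2 and 38.1 in WT and at 24.6, 23.5 and 22.5 in trunc/+ (-0.76, SE 0.15). CDCA7, a MYC and E2F target that is needed for DNA methylation, was at 12.6 and 18.7 in WT and at 6.49, 7.47 and 5.93 in trunc/+ (-1.11, SE 0.21). The trunc/+ clones were tight in all 3 genes and below every -/+ clone. ANP32E, a chaperone of the histone variant H2A.Z, was at 112 and 119 FPKM in WT and at 79.3, 76.6 and 77.5 in trunc/+ (-0.56, SE 0.11). PDCD2L had a difference of -0.93 (SE 0.18), and FAM72B one of -0.81 (SE 0.16). FAM72B belongs to 4 near-identical genes among which reads cannot be divided with confidence, and their summed FPKM was 62.5 and 73.8 in WT and 39.1, 43.9 and 32.7 in trunc/+.

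Nuclear RNA surveillance genes, the machinery to which Z18 belongs, were lower in 5 of 30 members and higher in 0, with a median of -0.17 and 7 positive differences. One of the 5 was Z18 itself. Of the exosome core, EXOSC5 was at 70.8 and 65.4 FPKM in WT and at 44.01, 48.3 and 37.5 in trunc/+ (-0.65, SE 0.15), and EXOSC2 at 49.4 and 45.7 against 26.9, 33.3 and 38.2 (-0.53, SE 0.16). EXOSC3 was at 55.1 and 52.7 against 34.9, 42.2 and 42.8. MTREX, the helicase shared by NEXT and PAXT, was at 57.5 and 57.9 in WT and at 37.99, 46.9 and 44.1 in trunc/+ (-0.42, SE 0.14). No trunc/+ value reached a WT value in these 4 genes. The count was 2 without the first WT clone, and 3 without the second WT or the first trunc/+ clone.

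NF-kB and TNF target genes were higher in 10 of 68 members and lower in 0, with a median of 0.30 and 49 positive differences. The single trunc/+ clones had medians of 0.55, 0.37 and -0.09, so the third did not share the shift. The study named NF-kB and antiviral signatures from these same samples, so this count is not independent evidence of their direction. LIF, a cytokine of the IL-6 family, was at 22.4 and 8.63 FPKM in WT and at 113, 75.0 and 26.6 in trunc/+ (2.05, SE 0.58). SAT1, which acetylates polyamines, was at 78.2 and 31.0 in WT and at 471, 108 and 397 in trunc/+ (2.44, SE 0.71). PHLDA2, an imprinted growth regulator, was at 67.6 and 61.5 in WT and at 150, 89.3 and 104 in trunc/+ (0.79, SE 0.22). SPHK1, a sphingosine kinase, had a difference of 0.99 (SE 0.28). All 4 were separate from WT, though in LIF the lowest trunc/+ clone stood little above the highest WT clone. The count was 6 without the first WT or first trunc/+ clone and 4 without the second WT clone.

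Interferon response genes were higher in 5 of 69 members and lower in 0, at a median of 0.23. The median was 0.09, 0.49 and -0.05 in the single trunc/+ clones, and without the second, where it was highest, 34 of 67 members were positive. By limma none of the 38 tested antiviral effectors was called at adjusted or unadjusted p under 0.05. Among the 5 were IRF9, B2M, JAK1 and HLA-F, and 3 of the 5 belong to antigen presentation. IRF9, the DNA-binding part of the interferon-activated complex ISGF3, was at 2.66 and 2.81 FPKM in WT and at 9.33, 12.4 and 4.81 in trunc/+ (1.32, SE 0.32). B2M, the light chain of MHC class I, was at 554 in both WT clones and at 1244, 885 and 702 in trunc/+ (0.73, SE 0.22). In both genes every trunc/+ clone was above both WT clones by more than the WT spread. Counts without 1 clone were 8 (first WT), 3 (second WT), 3 (first trunc/+) and 9 (the third trunc/+), and 3 with no filter on low FPKM.

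Smaller lists had fewer calls. Immediate early and MAPK feedback genes were higher in 3 of 34 (ETV1, JUND and DUSP4, median 0.31), hypoxia and glycolysis genes in 3 of 38 (ENO2, PDK1 and BNIP3L, with HILPDA lower, median 0.26), and TGF-beta and matrix genes in 4 of 45 (BMP1, BMP4, TGFBR2 and ITGA5, median 0.21). ENO2, a glycolytic enolase, was at 25.4 and 17.96 FPKM in WT and at 51.1, 37.3 and 39.7 in trunc/+, and ETV1, an ETS factor downstream of MAPK, at 14.2 and 17.0 against 25.8, 22.3 and 26.3. The MAPK count was 7 without the first, 1 without the second and 5 without the third trunc/+ clone. The hypoxia count was 6 without the second and 5 without the third trunc/+ clone, 5 after quantile scaling and 5 with a replicate block. The TGF-beta count was 1 without the first WT or the first trunc/+ clone, with 1 and 3 members lower. Replication-dependent histone genes were higher in 2 of 20 (H2BC21 and H4C8), in 7 without the third trunc/+ clone, in 1 without any other single clone, in 1 with a replicate block and in 3 of 18 with the 5 clones alone. H2BC21 was at 1.60 and 1.27 FPKM in WT and at 5.81, 6.25 and 3.34 in trunc/+ (1.30, SE 0.27). Genes of the p53 pathway (2 of 30 higher, CDKN2A and TP53INP1, median 0.00) and of sterol synthesis (2 higher and 2 lower of 27, median 0.02) had medians near that of all genes. The p53 count was 0 without the first trunc/+ clone, 5 without the third and 1 without the second trunc/+ or either WT clone, with 2 lower without the second WT clone, and 1 with a replicate block. The sterol counts were 1 to 2 higher and 1 to 3 lower over the settings tried.

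Genes of serine and one-carbon metabolism made up the integrated stress response members that were lower, 5 of 18 at a median of -0.21. PSAT1, an aminotransferase of serine synthesis, was at 118 and 120 FPKM in WT and at 52.0, 76.9 and 71.0 in trunc/+ (-0.85, SE 0.17). The others were MTHFD2 (-0.69), PHGDH (-0.73), PSPH (-0.41) and SHMT2 (-0.34), all enzymes that make serine or feed one-carbon units to purine synthesis. None of the 18 was higher. The count was 2 without the second trunc/+ clone, 3 without the second WT clone and 3 with a replicate block.

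Genes that silence TEs were lower in 5 of 37 and higher in 0, at a median of -0.15. SUV39H2, a histone H3 lysine methyltransferase of heterochromatin, was at 11.3 and 12.02 FPKM in WT and at 6.16, 8.62 and 8.21 in trunc/+ (-0.56, SE 0.16). CBX5, which binds the mark that SUV39H2 makes, was at 8.07 and 11.3 in WT and at 2.83, 3.79 and 5.49 in trunc/+ (-1.10, SE 0.34). The groups were separate in both, and the remaining members were UHRF1 (-0.54), KDM1A (-0.33) and CHAF1A (-0.35). The count of lower members was 0 without the second WT clone and 8 without the second trunc/+ clone, and without the third trunc/+ clone 2 were lower and 3 higher. On TPM it was 3 and with a replicate block 2. Zinc-finger genes of the ZNF family, many of which bind TEs, were lower in 25 of 363 and higher in 0 (median -0.14), among them ZNF626 (-0.99, SE 0.20) and ZNF146 (-0.72, SE 0.15), and in 9 without the second WT, 11 without the first WT, 14 without the first trunc/+ and 44 without the second trunc/+ clone.

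The gene with the smallest p among those higher in trunc/+ was ADIPOR2, a receptor for adiponectin with ceramidase activity. It was at 13.8 and 13.1 FPKM in WT and at 34.2, 35.1 and 33.6 in trunc/+, a log2 difference of 1.29 (SE 0.13) with an adjusted p of 0.0609 (limma), which ranged from 0.0313 to 0.676 over 11 other settings. The -/+ clones, at 37.6, 33.2 and 31.3 FPKM, overlapped the trunc/+ clones. CD55, which protects cells from complement, had the largest difference of the 12 leading higher genes, at 29.7 and 32.6 FPKM in WT and at 141, 69.8 and 75.5 in trunc/+ (1.51, SE 0.31). Others were the cytoskeletal linker PLEC (0.82, SE 0.15), the long non-coding RNA LINC01089 (1.07, SE 0.17), the arrestin-related ARRDC1 (1.06, SE 0.17), the chondroitin synthesis factor CHPF2 (0.75, SE 0.15) and UAP1L1 (1.10, SE 0.23).

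GAGE2C, a cancer-testis gene on the X chromosome (chrX:49589529-49596837), was the only gene past the adjusted threshold. It was at 6.27 and 4.58 FPKM in WT and was listed at 0 in all 3 trunc/+ clones, with an adjusted p of 0.0356 (limma), which ranged from 0.00289 to 0.676 over 9 other settings. The call was lost with a pseudocount of 0.1, with the 5 clones alone, with a replicate block and without any one of the trunc/+ clones. With either WT clone left out, GAGE2C failed the filter on low FPKM and was not tested. GAGE2C was also listed at 0 in all 3 -/+ clones, so it passed the filter on low FPKM only through the WT clones, where it is high, and had to differ. It belongs to a family of near-identical copies whose reads cannot be divided with confidence. Summed over 22 GAGE symbols, FPKM was 7.98 and 4.65 in WT and 0.126, 1.79 and 0 in trunc/+. COCH, an extracellular matrix protein of the inner ear, was at 7.42 and 7.59 FPKM in WT and at 1.74, 0.308 and 0 in trunc/+ (-2.48, SE 0.40).

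Differences among the trunc/+ clones were larger than these for some genes. The 10 genes that varied most among them included TGFBI, a matrix protein induced by TGF-beta, at 286, 305 and 2.77 FPKM, and NGFR, a neural crest receptor, at 3.77, 95.1 and 0.636. SERPINA3, a secreted protease inhibitor, was at 20.5, 0.116 and 258 FPKM in trunc/+ beside 140 and 136 in WT. The long non-coding RNA UCA1 was at 38.8, 134 and 0.185 FPKM in trunc/+ beside 0.236 and 2.27 in WT. In each the WT values lay within the range of trunc/+, and the clone that stood apart differed from gene to gene.

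Set beside the -/+ clones, 0 genes differed from trunc/+ by limma at an adjusted p under 0.05, and at unadjusted p under 0.05 it was above -/+ in 402 and below in 408. That comparison shares the trunc/+ clones with the one against WT. Summed FPKM of the purine list was lowest in the trunc/+ clones (714, 784 and 807), with 883, 921 and 909 for -/+ beside 1066 and 1080 for WT. The bulk libraries are independent of the clones, and their edit was a knockout and not the truncation. Of 932 genes with an unadjusted p under 0.05 that the bulk fit also held, 683 (73.3%) had the same sign in bulk, beside 6895 of 11854 (58.2%) of all genes. The bulk median over all genes was 0.19, and Z18 in the bulk controls ranged from 13.9 to 48.7 FPKM against 10.4 to 12.8 after editing. Bulk differences were 1.62 for CTSA, 1.02 for MAP1LC3B, -0.92 for ADSL, -0.75 for FBL and -1.51 for CENPH, of the sign seen in trunc/+. CD55 had -0.06 in bulk and TCIRG1 -0.13. List medians in bulk had the sign seen in trunc/+ for the lysosome (0.50), the cell cycle (-0.31), NF-kB and TNF targets (0.32) and ribosome biogenesis (-0.14). For purine synthesis the bulk median was -0.01. Lists with the other sign in bulk included the interferon response (-0.57), the integrated stress response (0.43) and ZNF genes (0.35). Nuclear RNA surveillance (0.14), TE silencing (0.07) and replication-dependent histone genes (-0.11) also had the other sign.

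Single TE copies gave no call at the adjusted threshold. Of 21634 loci tested on sense-strand counts, 0 (0.0%) passed by edgeR's quasi-likelihood test with Benjamini-Hochberg adjustment, the smallest adjusted p being 0.883, while at an unadjusted p under 0.05 trunc/+ had 564 higher (2.61%) and 319 lower (1.47%). DESeq2 called 5 loci. The smallest adjusted p among them (0.00252, DESeq2) was that of LSU-rRNA_Hsa (chr21:8397807-8401980), a ribosomal RNA repeat and not a TE. It had 1931 and 5741 counts in WT and 955, 753 and 960 in trunc/+. Most were divided multi-mapped reads: uniquely mapped counts were 143 and 141 in WT and 122, 88 and 131 in trunc/+. Over 12 other settings its log2 difference ranged from -2.57 to -0.31. The split by direction depended on 1 clone: without the second trunc/+ clone 396 of 20113 loci were higher and 457 lower. Leaving out a WT clone leaves 1 and lets more loci through the filter, 36546 without the first and 36054 without the second. Counts from those fits are therefore not set beside these.

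Among 3220 LTR loci, 93 (2.89%) had trunc/+ higher and 61 (1.89%) lower by the same unadjusted threshold, and 0 were called by edgeR after adjustment, against 1 by DESeq2. The locus called by DESeq2 was a MER41C copy (chr22:45162545-45162810), at 0.144 and 0 CPM (counts scaled to aligned fragments) in WT. It was at 8.01, 3.77 and 0.285 CPM in trunc/+ and at 0.0403, 0.160 and 0.461 in -/+. The third trunc/+ clone was thus below a -/+ clone. WT counts of 4 and 0 were under the minimum count, which the copy passed mainly through the first and second trunc/+ clones, where it is high. A difference was therefore partly built in. Without the second trunc/+ clone 63 of 2971 LTR loci were higher and 95 lower, and 1 was called. Without the third trunc/+ clone 150 of 3038 were higher. Leaving out the first or second WT clone raised the LTR loci tested to 5049 or 5006, so those counts are not set beside these. LINE loci gave 250 higher and 122 lower of 7708, and SINE loci 167 and 93 of 8552. By position, a locus with any overlap with an exon on its strand counted as exonic. The median log2 difference was 0.00 for 9572 exonic loci, 0.16 for 7642 in introns on the gene's strand and 0.10 for 3015 outside genes. Intronic loci were higher in 232 and lower in 72, exonic loci in 192 and 149.

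Most of these loci that lay in a tested gene had the direction of that gene. Of the 564 higher loci, 355 lay on the strand of a tested gene, and that gene had the same sign for 281 (79.2%) and was itself higher at unadjusted p under 0.05 for 57 (16.1%). Of the 319 lower loci, 158 lay so, 140 (88.6%) with the same sign and 50 (31.6%) with the gene itself lower. Reads of a copy in an exon can also count toward its gene, so part of this match can be built in. No same-sign share over all tested loci stands beside these shares, which are a description. The part of the host transcript in these locus counts was not tested.

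The locus with the smallest p was an L1ME4a copy, an old LINE fragment, in an intron of BHLHE40 (chr3:4982468-4982625, plus strand). It had 0 counts in both WT clones and 18, 52 and 59 in trunc/+, at least 14.9-fold higher against a floor of 3 counts per library. The -/+ clones had 1, 2 and 5 counts. The locus passed the minimum count only through the trunc/+ clones, where it is high, and so had to differ. By edgeR its adjusted p was 0.883, and by DESeq2 0.0124, over a range of 0.00149 to 1 in 12 other settings. BHLHE40, a circadian and hypoxia-response repressor, was itself at 14.8 and 8.49 FPKM in WT and at 32.7, 23.2 and 35.4 in trunc/+. The copy is shown because its reads were all unique and absent from WT, with the letters TATAAA, searched on the strand of the copy, in capitals.
L1ME4a: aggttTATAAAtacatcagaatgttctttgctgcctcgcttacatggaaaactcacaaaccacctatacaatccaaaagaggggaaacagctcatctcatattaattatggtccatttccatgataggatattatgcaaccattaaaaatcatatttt
These letters stood in 13.3% of the first 300 bases of 2470 LTR loci of at least that length and are not evidence of a promoter.

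L2 and MIR3 copies that overlap each other and an exon of WNT9A (chr1:227920783-227920873 and chr1:227920781-227920856, minus strand), a secreted Wnt ligand, share reads. The L2 copy had 1 and 3 counts in WT and 86.6, 92 and 13 in trunc/+ (4.92, SE 0.94). WNT9A was at 0.953 and 0.729 FPKM in WT and at 10.3, 14.5 and 1.73 in trunc/+ (2.09, SE 0.70), with the third clone low for both the gene and the copy. An L1ME1 copy that overlaps an exon of DBNL (chr7:44068478-44069445) had 68 and 64 counts in WT and 223, 175 and 149 in trunc/+ (1.46, SE 0.35), while DBNL differed by only 0.24. Among lower loci, an SVA_D copy outside genes (chr9:87758582-87759887) had 63 and 54 counts in WT and 1.67, 0 and 0 in trunc/+. An L1PA7 copy (chr3:109647589-109653403) had 28 and 32 counts in WT and 0 in every trunc/+ clone, at least 9.84-fold lower against the same floor. The -/+ clones had 0, 7 and 21 counts, so this copy passed the minimum count through WT and -/+ clones and not through trunc/+.

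Summed over all copies, no TE class differed beyond the spread between clones. With 3 clones against 2 the exact two-sided permutation test cannot go below p = 0.1. LTR copies summed to 4842 and 5726 sense CPM (counts scaled to the aligned fragments of the library) in WT and to 6895, 7129 and 4745 in trunc/+, a log2 difference of 0.23 (exact permutation p = 0.5). The first and second trunc/+ clones stood above both WT clones and the third below them. Most of that pattern was in the ERV1 family, at 2030 and 2917 in WT and at 4055, 3759 and 2005 in trunc/+ (0.36, exact permutation p = 0.6). ERVK was at 304 and 341 in WT and at 336, 627 and 352 in trunc/+ (0.38, exact permutation p = 0.5), and at 0.09 without the second trunc/+ clone. Leaving out 1 clone moved the LTR difference from 0.10 (without the first WT clone) to 0.41 (without the third trunc/+ clone), and the ERV1 difference from 0.10 to 0.68 for the same clones. LINE, SINE and DNA sums differed by 0.11, 0.04 and 0.06 (exact permutation p = 0.4, 0.5 and 0.4).

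**Figure D4:**
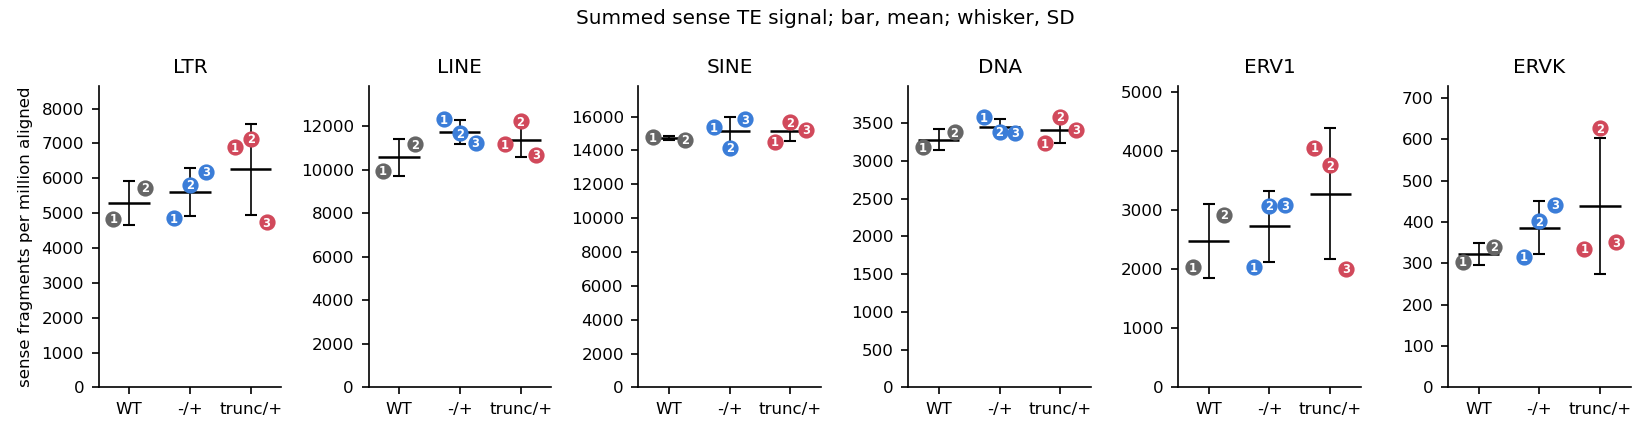
Sense CPM, summed over all copies of 4 TE classes and 2 ERV families, in the 8 clones; each numbered point is a clone, the bar is the mean and the whisker the SD, and every axis starts at 0. For LTR and ERV1 the third trunc/+ clone (4745 and 2005) lies below both WT clones and the other two lie above them.

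Both ERV regions described next were singled out by the study from these samples, so their direction is not independent evidence. The MER4-int region is a run of 14 LTR-class fragments (chr14:105032453-105039940, plus strand). It had 0.975 and 1.21 CPM in WT and 6.92, 21.8 and 6.17 in trunc/+, from 27 and 39 counts against 228, 608 and 174. All trunc/+ clones stood above every WT and -/+ clone, the -/+ values being 2.34, 1.33 and 1.51. The ratio of means was 10.7 (log2 difference 3.17), with an exact permutation p of 0.1, the smallest possible, and the log2 difference was 2.59 without the second trunc/+ clone. Unique reads made up 96.1% of the counts. The copy of this region that was among the 5 LTR loci of smallest p (chr14:105034048-105034778) had 3 and 7 counts in WT and 32, 106 and 29 in trunc/+ (3.52, SE 0.86), with an adjusted p of 1 by edgeR, and from 0.0867 to 1 over 12 other settings. With -/+ counts of 8, 2 and 8, this copy too passed the minimum count only through the trunc/+ clones.

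The HERVK3-int region (2 loci) lies on chromosome 16. Its sense level was 9.90 and 11.4 CPM in WT and 27.7, 55.4 and 30.4 in trunc/+, with no overlap. The -/+ clones were at 19.6, 16.3 and 7.12 CPM, all below trunc/+, with the first and second above both WT clones. The ratio of means was 3.56 (log2 difference 1.76, exact permutation p = 0.1, the smallest possible), and the log2 difference was 1.45 without the second trunc/+ clone. The internal copy (chr16:35517050-35524053, plus strand), which overlaps an annotated exon of ENSG00000287448, had 267 and 356 counts in WT and 908, 1535 and 841 in trunc/+ (1.86, SE 0.48). The LTR3B copy that follows it (chr16:35524056-35524479) had 40.8 and 36.0 counts in WT and 164, 153 and 124 in trunc/+ (1.93, SE 0.50). The copy before the internal part did not differ in this way, at 7.58 and 9.73 counts in WT and 5.34, 8.75 and 12.9 in trunc/+.

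The first 300 bases of the MER4-int copy (chr14:105034048-105034347) and the last 300 of the LTR3B copy (chr16:35524180-35524479), both on the plus strand of hg38, are shown because each copy was among the 5 higher LTR loci of smallest p and lay outside annotated genes. Capitals mark TATAAA on the strand of the copy, which stood in 13.3% of first and 17.0% of last 300-base windows of the 2470 LTR loci counted above.
MER4-int: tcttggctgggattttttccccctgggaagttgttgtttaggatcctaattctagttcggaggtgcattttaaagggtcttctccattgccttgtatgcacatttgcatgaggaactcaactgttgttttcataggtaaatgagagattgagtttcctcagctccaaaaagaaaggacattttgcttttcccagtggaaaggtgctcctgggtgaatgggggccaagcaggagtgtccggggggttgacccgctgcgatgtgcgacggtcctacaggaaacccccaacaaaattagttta
LTR3B: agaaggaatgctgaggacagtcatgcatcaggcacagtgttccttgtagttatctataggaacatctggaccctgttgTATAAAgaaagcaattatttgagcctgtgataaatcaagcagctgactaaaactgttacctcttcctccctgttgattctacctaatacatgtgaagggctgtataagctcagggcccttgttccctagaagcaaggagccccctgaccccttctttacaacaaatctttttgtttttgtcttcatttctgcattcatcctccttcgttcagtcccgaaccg
The MER4-int window held 0 matches and the LTR3B window 1, and neither count says where transcription started.

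**Figure D5:**
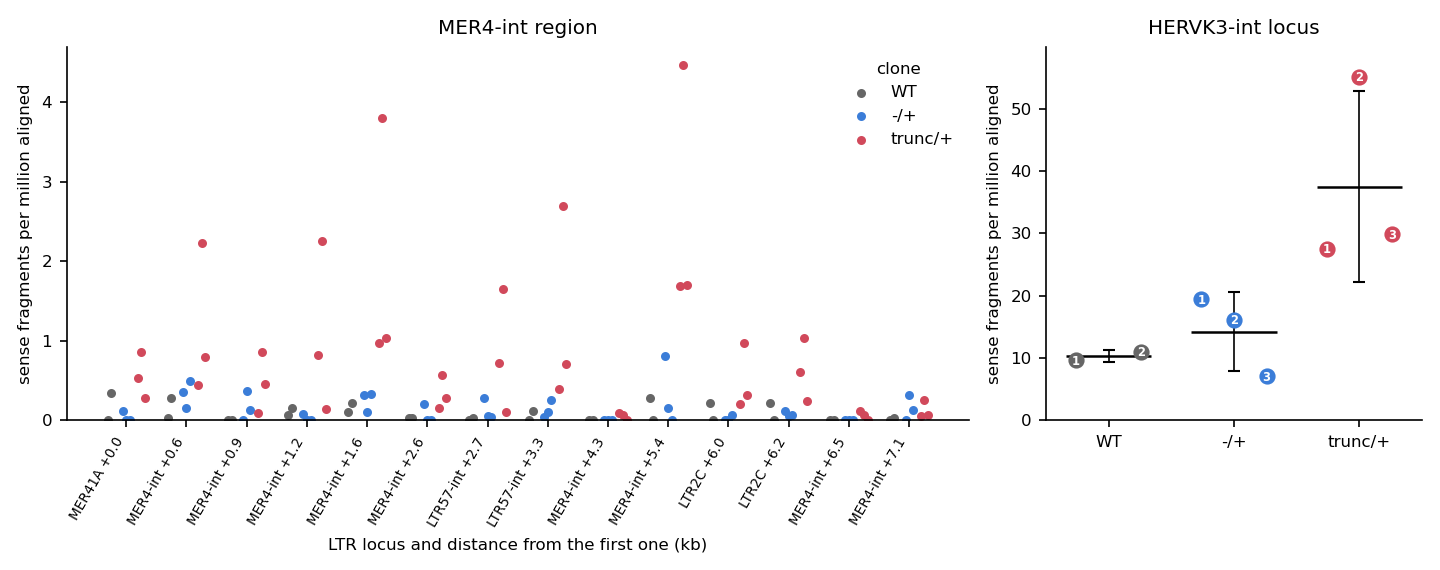
Sense CPM at each of the 14 LTR loci of the MER4-int region, by distance from the first (kb; points are clones), and at the HERVK3-int locus (numbered points are clones, bar mean, whisker SD). The second trunc/+ clone is highest at the HERVK3-int locus (55.1), and the 3 trunc/+ clones lie above both WT clones there.

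Summed by subfamily, 30 of 976 (3.07%) had an unadjusted p under 0.05 with trunc/+ higher and 7 (0.717%) with trunc/+ lower, and 0 passed by edgeR after adjustment, against 1 and 3 by DESeq2 with aligned-fragment and its own size factors. The split was 27 and 13 with TMM and 29 and 15 with the DESeq2 size factors, and 26 and 22 without the second trunc/+ clone. Without the first WT clone 16 were higher, and without the third trunc/+ clone 45. Several differences came from 1 copy: the chromosome 16 copy held 90.4% of the trunc/+ counts of LTR3B (1.505, SE 0.43), a chromosome 22 copy 65.0% of those of MER41C (1.34, SE 0.42), and the chromosome 1 copy 89.8% of LTR76 (-1.02, SE 0.27). LTR57-int had the smallest p of the higher ones (2.42, SE 0.58), but its largest copy (chr14:105035783-105036265, 41.4% of its trunc/+ counts) and another lie in the MER4-int region, so the results overlap. The smallest p of the lower was that of PABL_B-int (-1.30, SE 0.31). All 6 Alu subfamilies of the list were within 0.06 to 0.19 of WT.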

How the data were processed

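RNA from A375 clones was polyA-selected and sequenced from stranded libraries. The authors aligned reads to hg38 and, with SQuIRE (version not given in the sources used here), deposited FPKM and TPM per RefSeq gene from StringTie, and per TE copy expected counts that divide multi-mapped reads, beside counts of uniquely mapped reads. Trimming used cutadapt 4.6 per the submitters' processing notes. Genes with FPKM of at least 1 in at least 2 of the 8 clones were tested on log2(FPKM + 1) with limma 3.58.1, as FPKM are not counts. Sense expected counts, rounded, were tested with edgeR 4.0.16 (quasi-likelihood, minimum count 10, library sizes from aligned fragments). Both fits held all 8 clones, with Benjamini-Hochberg adjustment at 0.05. Sums were compared by exact two-sided permutation. Gene context came from GENCODE 44. Alternatives were DESeq2 1.42.0, TMM, TPM, quantile scaling, other pseudocounts and filters, unique counts, the 5 clones alone, a replicate block and each clone left out. R 4.3.3, Python 3.11.15, scipy 1.17.1, pandas 2.3.3 and bedtools 2.31.1 were used, and the fits were tested on simulated data. Named genes were the 12 of smallest p per direction among genes whose trunc/+ and WT values did not overlap. Also named were up to 4 of smallest p per list and the 10 most variable among trunc/+ clones. Others were named after their values were seen. Some genes that the rule picks are not reported here. The members and lists were chosen with earlier results of these data known. Depth limits rare transcripts, since a count of 0 allows up to 3 counts by counting error alone.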

Additional observations from a re-analysis of the deposited data

How the results depend on the processing

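Of 1404 gene values over all settings 34 changed sign, and of 383 locus values 0. The number of genes called was 0 with a pseudocount of 0.1, 3 with no filter on low FPKM (846 lower at unadjusted p under 0.05) and 0 with the 5 clones alone. DESeq2 called 5 loci with aligned-fragment sizes, 1 of them an LTR copy and 1 a ribosomal RNA repeat, and 4 with its own size factors. It called 1 and 3 subfamilies, with 15 lower under its own size factors, against 13 lower with TMM. A minimum count of 3 gave 41 called loci (1751 higher, 1168 lower), 20 of them LTR copies (294 LTR copies higher, 183 lower).

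Replicate numbers did not pair the clones, as deviations of same-numbered clones correlated at -0.55 to 0.51. With a replicate block 0 genes were called (420 higher and 491 lower) and 0 loci (447 higher and 216 lower). LTR copies then gave 89 higher and 43 lower, subfamilies 30 and 10. The differences of CD74 (0.0561) and SERPINB5 (-0.0689) changed sign with the block.

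Leaving out each clone in turn gave 0 to 1 called genes (206 to 649 higher, 246 to 638 lower), 0 to 10 called loci (396 to 996 higher), 0 to 3 called LTR copies (63 to 226 higher, 67 to 95 lower) and 16 to 45 higher and 4 to 22 lower subfamilies. The filter let through 36546 and 36054 loci without the first and second WT clone, against 21634 in the main fit. The upper ends of the locus ranges therefore also reflect more loci tested. The ERVL-MaLR sum ranged from -0.0676 to 0.0207. Genes that vary between clones changed sign: SPANXA2 from -3.51 to 3.19, RNA18SN4 from -3.52 to 2.17, TGFBI from -0.86 to 2.31, HAPLN1 from -1.77 to 2.36, LINC02582 from -1.46 to 3.58, HBE1 from -1.56 to 1.30, NGFR from -0.66 to 2.28, SERPINB5 from -1.56 to 1.61, CD74 from -0.90 to 0.65, SOX10 from -0.32 to 0.49, IMPDH1 from -0.155 to 0.0542 and ADSS2 from -0.0883 to 0.0591. HBE1 was -0.39 with a pseudocount of 0.1 and -0.0227 on TPM, SERPINB5 -0.34 with a pseudocount of 0.1, and ADSS2 0.00636 with quantile scaling and 0.0103 on TPM. The cause of these changes was not tested. With 2 WT clones, small differences could not be resolved.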
